A study of Mus musculus with 2 samples.

Results

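The RANKL, osteoprotegerin and CSF1 axis comprises 6 genes, chosen by name and not by their values here, and all 6 were among the 22652 genes of the count tables from fetal mouse bone marrow. Tnfsf11 encodes RANKL, Tnfrsf11a its receptor RANK, Tnfrsf11b the soluble decoy receptor osteoprotegerin, Csf1 and Il34 ligands for the CSF1 receptor, and Csf1r that receptor. Lineage-depleted cells from femoral marrow of C57BL/6 embryos at embryonic stage E18.5 were profiled by BD Rhapsody whole-transcriptome single-cell RNA sequencing. One library came from wild-type (WT) embryos and the other from Bmx-CreER Wls embryos, in which a tamoxifen-inducible Cre under control of the Bmx gene acts in arterial endothelial cells on floxed alleles of Wls, a gene needed for secretion of Wnt proteins, after the pregnant mothers were given tamoxifen. The sources used here do not state how many embryos were pooled, nor the tamoxifen treatment or litter of the WT embryos. With 1 library per genotype no difference has a replicate check, so every ratio compares these 2 libraries and not the genotypes, no p-value is given, and all intervals are exact 95% intervals that cover counting error only.

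RANKL is made by cells of the bone and stromal lineages and signals through RANK on cells of the monocyte lineage, which fuse into bone-resorbing osteoclasts. Osteoprotegerin binds RANKL and keeps it from RANK, so the balance between them is commonly read as a measure of how much osteoclast formation a tissue permits. CSF1, and in some tissues IL-34, bind CSF1R and sustain the precursors and the osteoclasts themselves. In the fetal limb the first osteoclasts gather where hypertrophic cartilage is replaced by bone and marrow.

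The WT library held 5998 cell barcodes with 22708005 unique molecular identifiers (UMIs), and the Bmx-CreER Wls library 6825 barcodes with 24704991 UMIs. After filtering, 5736 and 6620 cells were kept, with medians of 3128 and 3067 UMIs per cell; 49 barcodes were shared by the libraries. Joint clustering without the 6 genes and their pathway genes gave 15 classes. Classes named from marker lists end in "-like", and the others carry their leading gene ("Ucma-led"). Levels are given as CPM, a gene's UMIs divided by all UMIs of the class and multiplied by 1000000. The osteoblast-like, osteoclast-like and Col3a1-high fibroblast-like classes had all 9 of their 9 markers at 2-fold or more over the other cells in both libraries. The osteoblast-like class also carried osteoclast markers at a summed 2249 CPM in WT and 1967 CPM in Bmx-CreER Wls, against 38893 and 32316 CPM in the osteoclast-like class itself. Little of that sum came from Ctsk (79.0 and 78.1 CPM) or Acp5 (7.96 and 5.14 CPM), and 2 and 3 of the 9 osteoclast markers had no UMI there. The libraries also differed in the sex of the cells: of the cells with UMIs of either Xist or 4 Y-linked genes but not both, 75.0% were of the Y kind in WT and 9.78% in Bmx-CreER Wls. Wls itself had 10 UMIs in the 76 arterial endothelial-like cells of WT (40.5 CPM) and 3 UMIs in the 67 of Bmx-CreER Wls (10.7 CPM); since the tags lie at transcript ends, which can be outside the deleted part, these counts do not check the deletion.

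On GRCm38 (GENCODE M21), Tnfsf11 lies on the minus strand at chr14:78277445-78308043, Csf1 on the minus strand at chr3:107741048-107760469, Tnfrsf11a on the plus strand at chr1:105780718-105847981, Tnfrsf11b on the minus strand at chr15:54250619-54278484 and Il34 on the minus strand at chr8:110741829-110805924. All are protein-coding genes. The 250 bases upstream of the start are shown for Tnfsf11 (chr14:78308044-78308293) and Csf1 (chr3:107760470-107760719), the ligand genes that shared the osteoblast-like class as the class of highest level, from RefSeq for GRCm38.p6 and written along the strand of the gene, with motif matches in capitals.
Tnfsf11: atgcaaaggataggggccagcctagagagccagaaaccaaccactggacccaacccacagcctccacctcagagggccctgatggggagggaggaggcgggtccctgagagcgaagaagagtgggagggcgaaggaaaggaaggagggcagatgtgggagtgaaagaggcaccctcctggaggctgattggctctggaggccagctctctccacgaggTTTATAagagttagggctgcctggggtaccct
Csf1: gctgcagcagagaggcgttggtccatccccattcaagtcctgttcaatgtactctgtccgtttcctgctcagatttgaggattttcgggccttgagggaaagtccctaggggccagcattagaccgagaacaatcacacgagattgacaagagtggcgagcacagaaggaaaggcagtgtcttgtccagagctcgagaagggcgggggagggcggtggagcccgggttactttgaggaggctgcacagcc
The windows were searched on both strands for the RUNX core TGTGGT (in 14% of 32851 windows of this length), the PU.1 core GAGGAA (23.3%), the AP-1 site TGANTCA (6.75%) and the TATA box TATAAA (12.4%). The single match was a TATA box on the other strand in Tnfsf11, read along the gene as TTTATA from 32 to 27 bases before the start. The same search of the Tnfrsf11a window (chr1:105780473-105780722) gave no match. G and C made up 60.4% of the Tnfsf11 window, 56.4% of that of Csf1 and 73.6% of that of Tnfrsf11a, against a median of 52.4%.

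**Figure D1:**
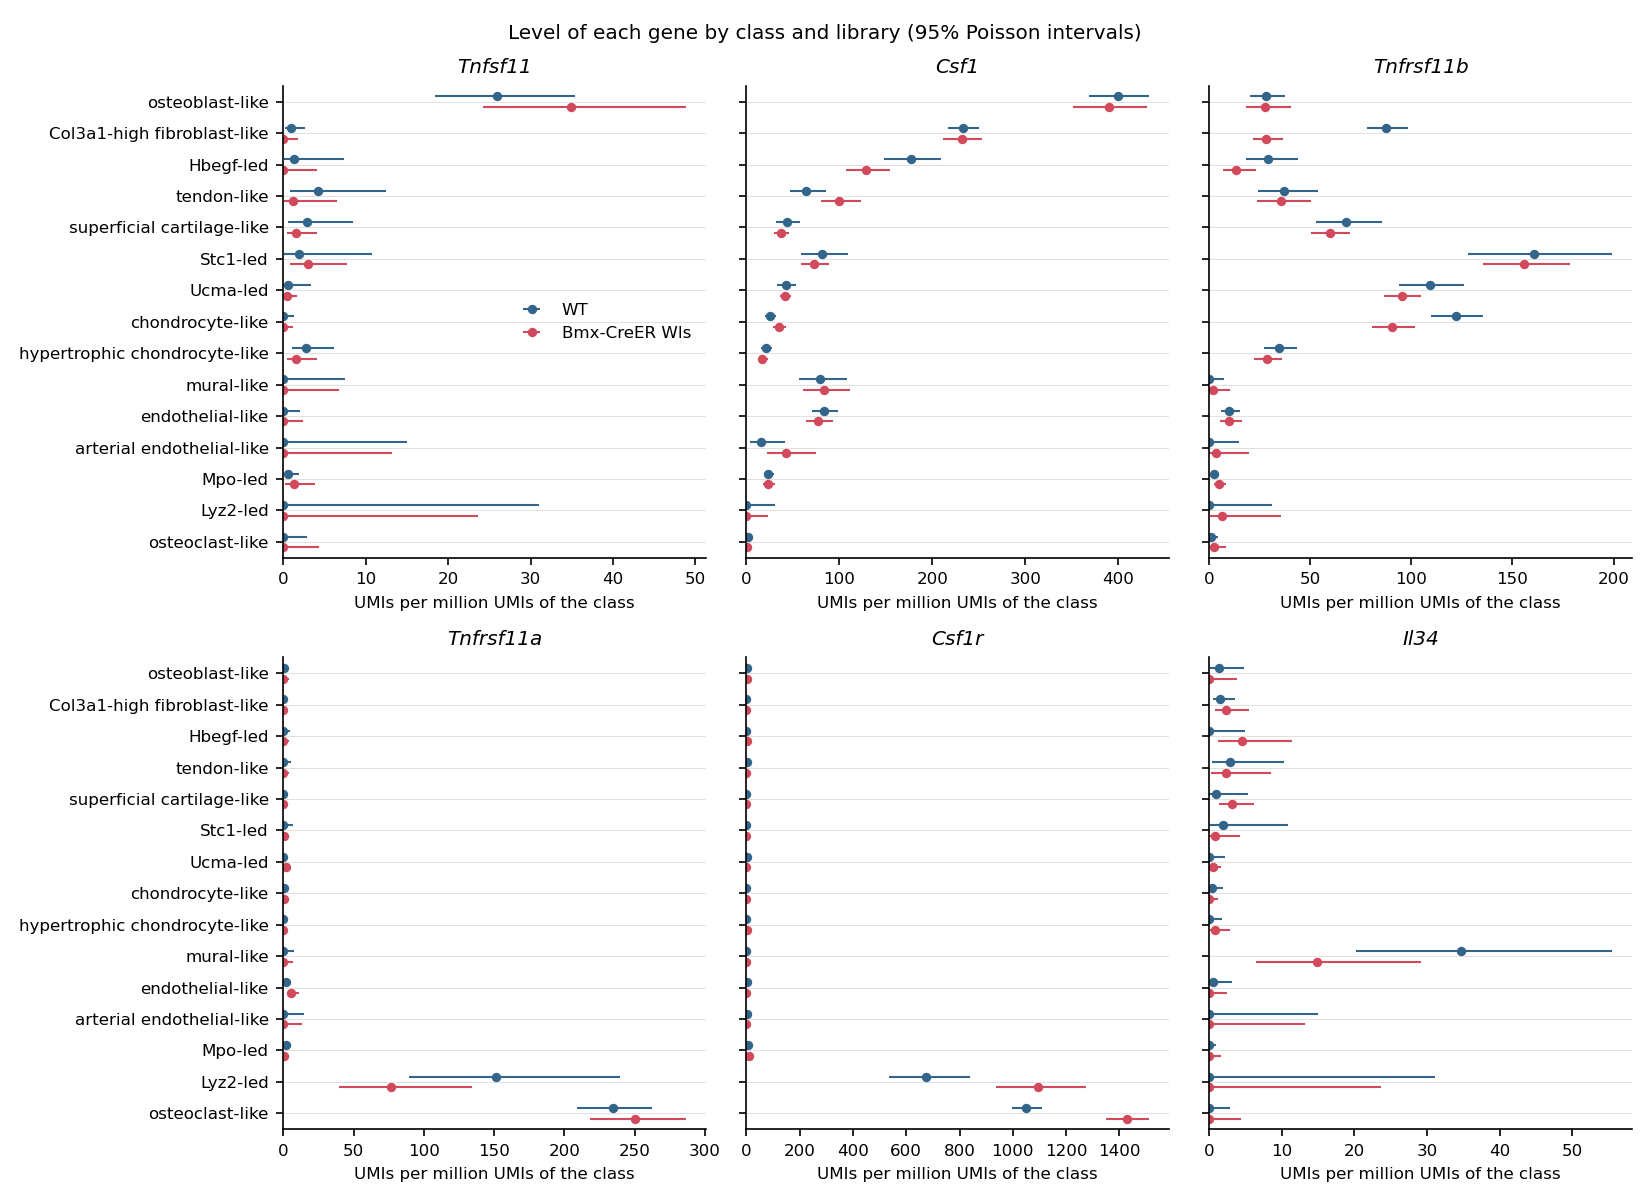
Level (CPM) of the 6 genes in each class in the WT and the Bmx-CreER Wls library, with exact 95% Poisson intervals. Tnfsf11 is highest in osteoblast-like cells (25.9 and 35.0 CPM), Tnfrsf11b in Stc1-led cells (161 and 156 CPM) and Csf1r in osteoclast-like cells (1051 and 1428 CPM).

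Tnfsf11 was rarer than the gene of its receptor or of its decoy and was found mainly in bone cells. The osteoblast-like class held 39 of the 59 Tnfsf11 UMIs of WT (66.1%, interval 52.6 to 77.9%) and 34 of the 52 of Bmx-CreER Wls (65.4%, 50.9 to 78.0%). Its level there was 25.9 CPM (18.4 to 35.4) in WT and 35.0 CPM (24.2 to 48.9) in Bmx-CreER Wls. In both libraries this was at least 2 times the level in each of the other 13 classes with 50 cells or more in each library, which leaves out the Lyz2-led class, and 0.537% of 13791 genes achieved this for osteoblast-like cells. A Tnfsf11 UMI was seen in 33 of 314 osteoblast-like cells of WT (10.5%) and in 19 of 174 of Bmx-CreER Wls (10.9%), and in 2.56% and 4.68% of them after thinning every cell to 1000 UMIs, which left out 2 and 3 shallower cells.

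Cartilage cells had Tnfsf11 at low levels. The 5 cartilage classes, with Stc1-led cells among them, together held 11 of the 59 UMIs of WT (18.6%, interval 9.69 to 30.9%). In Bmx-CreER Wls they held 14 of the 52 (26.9%, 15.6 to 41.0%). Over their 2448 and 4199 cells the level was 1.32 and 1.01 CPM. The hypertrophic chondrocyte-like class, the cells at the front where cartilage is replaced, held 6 UMIs in 328 cells of WT (2.81 CPM, interval 1.03 to 6.11) and 4 in 363 cells of Bmx-CreER Wls (1.60 CPM, 0.437 to 4.11). No UMI was seen in the 797 and 937 chondrocyte-like cells, which allows levels of up to 1.02 and 0.944 CPM (3 UMIs), at median depths of 3312 and 3113 UMIs against 4433 and 5102 in osteoblast-like cells. The osteoclast-like, endothelial-like, arterial endothelial-like and mural-like classes also had no Tnfsf11 UMI in either library. The remaining classes held between 0 and 4 UMIs each.

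Within the bone class, Tnfsf11 lay with the Cxcl12-rich cells and not with those richest in bone matrix genes. Clustering the osteoblast-like cells again gave 6 subclusters. An Mmp9-led subcluster (with Thy1, Lpl and Vcam1 among its leading genes) held 18 Tnfsf11 UMIs in 53 WT cells (84.7 CPM) and 9 in 22 Bmx-CreER Wls cells (121 CPM). A Cxcl12-rich osteolineage-like subcluster held 18 in 116 cells (44.8 CPM) and 8 in 53 cells (36.4 CPM). Cxcl12, the chemokine that retains blood stem cells in marrow, stood at 6932 and 8044 CPM in the former and at 3173 and 2219 CPM in the latter. The osteoclast gene Ctsk was at 104 and 94.5 CPM in the Mmp9-led subcluster and Dcstamp, needed for osteoclast fusion, had no UMI there. By contrast, the Ifitm5-led subcluster, with Ibsp (bone sialoprotein) at 37537 and 31469 CPM, had 0 Tnfsf11 UMIs in 71 WT cells and 1 in 43 Bmx-CreER Wls cells. The osteoblast-like subcluster led by Jun had 0 in 46 and 3 in 29 cells. Under the cell labels of the study, known here for WT, the cells labelled OLCs-1 had 38 UMIs in 202 cells (52.2 CPM) and those labelled OLCs-2 had 0 in 102 cells, a level of at most 4.94 CPM for 3 UMIs.

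The Tnfsf11 level in osteoblast-like cells was 1.35 times as high in the Bmx-CreER Wls library as in WT, with an interval of 0.827 to 2.20 that includes 1. The ratio was 0.528 among cells with Xist UMIs and none of the 4 Y-linked genes (37 WT and 65 Bmx-CreER Wls cells). It was 2.78 among cells with Y-linked UMIs and none of Xist (145 and 29 cells). These ratios rest on few UMIs and have no intervals, and a dependence on the kind of cell was not tested. In this class 4.44% of 9062 genes differed by 2-fold or more between the libraries, and 86.0% of genes had a lower ratio than Tnfsf11. One Bmx-CreER Wls cell held 10 of the 34 UMIs. It also had 43 Csf1 UMIs and 1155 of Col10a1, the collagen of hypertrophic cartilage, and was among the 5% of cells with the highest doublet scores. Without the top cell of each library the levels were 24.6 CPM (17.3 to 33.9) in WT and 25.0 CPM (16.0 to 37.2) in Bmx-CreER Wls. The top cell belonged to a Col10a1-led subcluster in which Tnfsf11 counted 2 UMIs in 21 WT cells and 11 in 15 Bmx-CreER Wls cells.

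**Figure D2:**
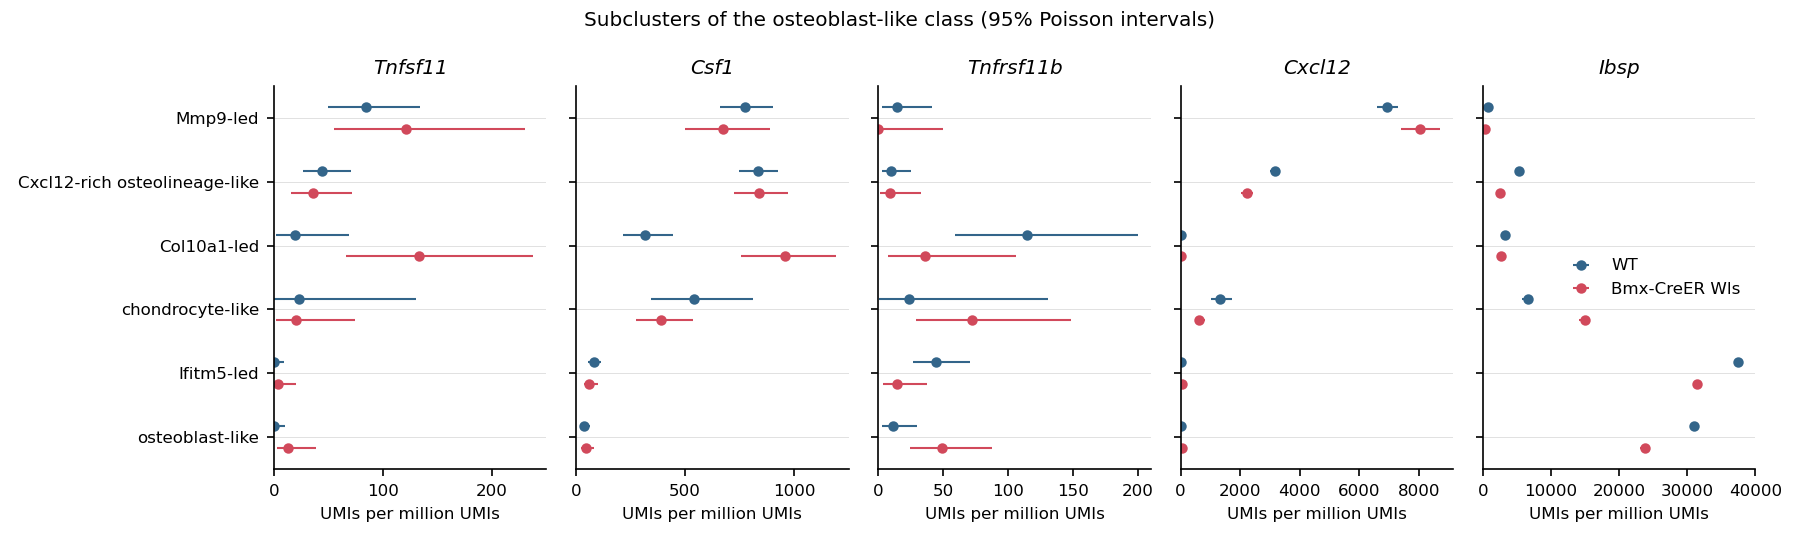
Levels (CPM) of Tnfsf11, Csf1, Tnfrsf11b, Cxcl12 and Ibsp in the 6 subclusters of osteoblast-like cells, by library, with exact 95% Poisson intervals. Tnfsf11 and Csf1 are high in the Mmp9-led and Cxcl12-rich subclusters, where Ibsp is lower than in the Ifitm5-led subcluster.

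Csf1, the main ligand of CSF1R, was found in more classes than Tnfsf11 and at a far higher level. Among the classes it was highest in osteoblast-like cells, with 602 UMIs in WT (400 CPM, interval 368 to 433) and 379 in Bmx-CreER Wls (390 CPM, 351 to 431). It was next highest in Col3a1-high fibroblast-like cells, with 779 UMIs (233 CPM, 217 to 250) and 491 (232 CPM, 212 to 254). The intervals of these classes did not overlap in either library. Hbegf-led cells followed at 177 and 129 CPM. The osteoclast-like class, which carries the receptor, had 3 Csf1 UMIs in 169 cells and 1 in 108 cells. A Csf1 UMI was seen in 58.9% and 53.4% of osteoblast-like cells against 1.78% and 0.926% of osteoclast-like cells, which were deeper (medians of 7170 and 8020 UMIs). After thinning to 1000 UMIs these shares were 28.5% and 21.6% against 0% and 0%, with 1 to 4 cells left out per class.

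Below these, the middle of the order was close. Endothelial-like cells had 83.8 CPM in WT and 77.6 CPM in Bmx-CreER Wls, mural-like cells 79.4 and 83.2 CPM, and Stc1-led cells 81.3 and 73.0 CPM, and these did not differ beyond counting error. Chondrocyte-like cells had 25.5 and 35.3 CPM and hypertrophic chondrocyte-like cells 21.04 and 17.2 CPM. The bone class held 28.4% and 20.7% of the Csf1 UMIs, and the fibroblast-like, Hbegf-led and tendon-like classes together held 45.2% and 37.8%. Such shares follow how many cells of a class were captured, and the bone class made up 5.47% and 2.63% of the cells.

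Csf1 and Tnfsf11 were high in the same bone subclusters. Csf1 stood at 776 CPM in WT and 675 CPM in Bmx-CreER Wls in the Mmp9-led subcluster and at 833 and 841 CPM in the Cxcl12-rich one. It stood at 82.2 and 61.8 CPM in the Ifitm5-led subcluster and at 37.9 and 44.7 CPM in the Jun-led one. In the Col10a1-led subcluster it stood at 315 and 957 CPM, the latter with 43 of 79 UMIs from the single cell described above. Of the osteoblast-like cells with a Tnfsf11 UMI, 90.9% in WT and 73.7% in Bmx-CreER Wls also had a Csf1 UMI, against 55.2% and 51.0% of those without, at median depths of 4141 and 4903 UMIs against 4477 and 5106. Under the study's labels in WT, OLCs-1 had 514 Csf1 UMIs (706 CPM) and OLCs-2 had 23 (37.9 CPM).

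Between the libraries, Csf1 in osteoblast-like cells had a ratio of Bmx-CreER Wls to WT of 0.975 (interval 0.855 to 1.11), but of 0.719 among cells of the Xist kind and 2.24 among cells of the Y kind. In fibroblast-like cells the ratio was 0.996 (0.888 to 1.12). Tendon-like cells had 63.8 CPM in WT and 100.03 CPM in Bmx-CreER Wls (ratio 1.57, 1.08 to 2.30). Hbegf-led cells had the opposite order (ratio 0.730, 0.564 to 0.943). Over all cells of a class, none of the Csf1 ratios in the 12 classes with at least 20 UMIs reached 2-fold. Below that count, arterial endothelial-like cells had 4 UMIs in WT (16.2 CPM, 4.42 to 41.5) and 12 in Bmx-CreER Wls (42.7 CPM, 22.1 to 74.6), with overlapping intervals. In the Apoe-led subcluster of fibroblast-like cells Csf1 was at 598 CPM in WT (107 UMIs in 70 cells) and 309 CPM in Bmx-CreER Wls (92 UMIs in 115 cells), a ratio of 0.516 (0.386 to 0.688).

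**Figure D3:**
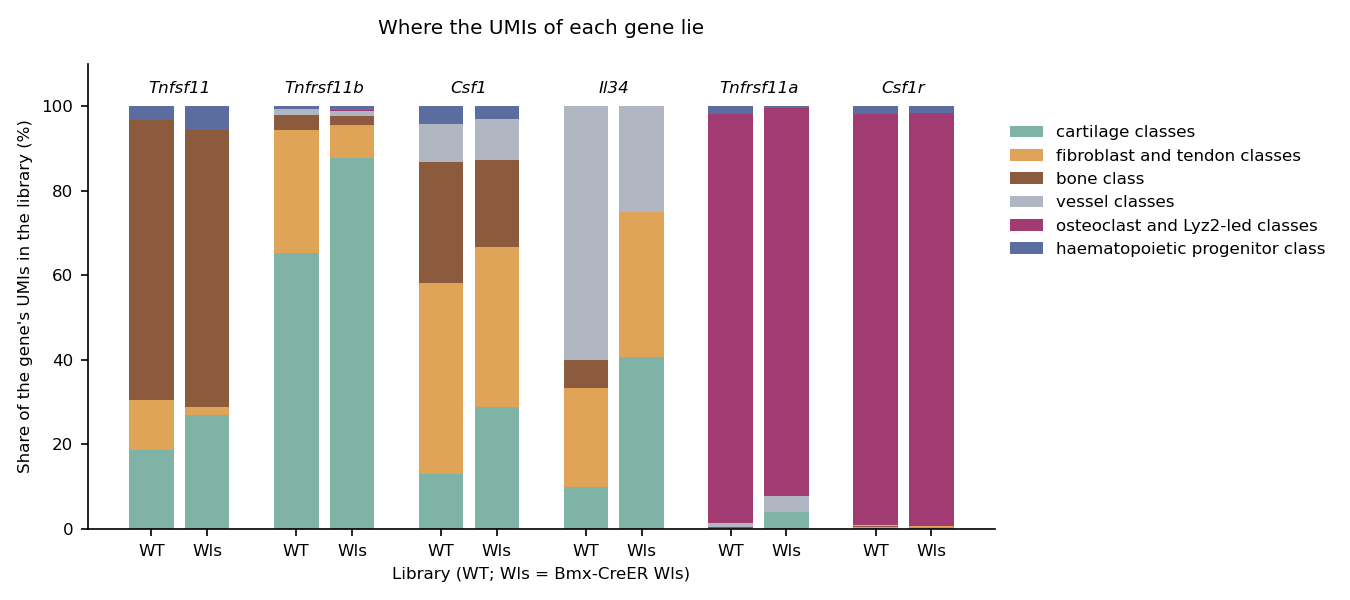
Share (percent) of each gene's UMIs held by groups of classes in the WT and the Bmx-CreER Wls library. Tnfrsf11b lies mostly in the cartilage classes (65.3% and 87.6%), Tnfsf11 in the osteoblast-like class (66.1% and 65.4%), and the receptors Tnfrsf11a and Csf1r in the osteoclast-like and Lyz2-led classes. Shares follow how many cells of a class were captured. The cartilage classes, with Stc1-led cells among them, had 2448 cells in WT and 4199 in Bmx-CreER Wls, with Tnfrsf11b at 92.6 and 81.5 CPM.

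Tnfrsf11b, the decoy, had a different distribution from its ligand and was mainly a cartilage transcript, and in WT also a fibroblast one. Col3a1-high fibroblast-like cells held 24.9% of its UMIs in WT and 4.65% in Bmx-CreER Wls. Each library had 52.9 CPM over all cells (1178 UMIs in WT and 1290 in Bmx-CreER Wls), so that Tnfrsf11b UMIs outnumbered Tnfsf11 UMIs over all cells. The highest level was in Stc1-led cells, with 83 UMIs in 192 WT cells (161 CPM, interval 128 to 199) and 207 in 383 Bmx-CreER Wls cells (156 CPM, 135 to 179). These cells, counted here as cartilage, had the cartilage gene Acan at 1506 and 1755 CPM, near the 1480 and 1484 CPM of tendon-like cells. Their summed chondrocyte markers stood at 17064 and 23571 CPM. Tendon-like cells, grouped with fibroblasts, had 22792 and 24479 CPM, and chondrocyte-like cells 177737 and 181345 CPM. The Stc1-led level in WT depended on the clustering: it was 99.0 CPM with the members and pathway genes kept in and 98.5 CPM with each library clustered on its own, both below the chondrocyte-like level that follows. Chondrocyte-like cells had 360 UMIs (122 CPM) and 288 UMIs (90.7 CPM), and Ucma-led cells 109 and 95.2 CPM. Superficial cartilage and joint lining-like cells had 67.6 and 59.6 CPM. Hypertrophic chondrocyte-like cells, at 34.6 and 28.5 CPM, were below the other cartilage classes.

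The osteoblast-like class had 42 Tnfrsf11b UMIs in WT (27.9 CPM) and 27 in Bmx-CreER Wls (27.8 CPM), a ratio of 0.996 (0.590 to 1.65). Mural-like cells, with 0 and 1 UMI, served as a low reference that was taken from these same data. Other classes with few UMIs were higher, with a Tnfrsf11b UMI in 2.91% and 3.27% of endothelial-like and 1.18% and 2.89% of Mpo-led cells. A Tnfrsf11b UMI was seen in 33.9% and 25.1% of chondrocyte-like cells against 0% and 0.699% of mural-like cells, whose median depths were 2876 and 3520 UMIs; the 0 of 156 allows a share of up to 1.92%. Thinned, the chondrocyte-like shares were 12.9% and 9.35% (9 and 17 cells left out) and the mural-like shares 0% and 0% (1 and 1). Between the libraries, the ratio of Bmx-CreER Wls to WT was 0.742 (0.633 to 0.868) in chondrocyte-like cells and 0.970 (0.748 to 1.27) in Stc1-led cells. In chondrocyte-like cells 4.00% of 10309 genes differed by 2-fold or more, and 13.5% of genes had a ratio as low as that of Tnfrsf11b.

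Set against its decoy, Tnfsf11 had more UMIs in both libraries in the Cxcl12-high bone subclusters, from small counts. Over all cells there were 0.0501 Tnfsf11 UMIs per Tnfrsf11b UMI in WT (interval 0.0379 to 0.0651) and 0.0403 (0.0299 to 0.0532) in Bmx-CreER Wls. In the osteoblast-like class the ratio was 0.929 (0.585 to 1.47) and 1.26 (0.737 to 2.17). In the Mmp9-led subcluster it was 18 to 3 UMIs in WT (ratio 6.0, interval 1.75 to 31.8) and 9 to 0 in Bmx-CreER Wls (lower limit 1.97). In the Cxcl12-rich subcluster it was 18 to 4 (4.5, 1.48 to 18.3) and 8 to 2 (4.0, 0.798 to 38.7), the latter with an interval that includes 1. In the Ifitm5-led subcluster the order turned, with 0 to 18 and 1 to 4 UMIs. The Col10a1-led subcluster had 2 to 12 in WT and 11 to 3 in Bmx-CreER Wls, where 10 of the 11 came from the single cell described above. These are ratios of UMIs of transcript ends and not of protein.

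Among members and classes with at least 20 UMIs over both libraries, the ratio farthest from 1 was that of Tnfrsf11b in Col3a1-high fibroblast-like cells. WT had 293 UMIs in 979 cells (87.6 CPM, interval 77.9 to 98.2) and Bmx-CreER Wls 60 UMIs in 610 cells (28.3 CPM, 21.6 to 36.5), so that the intervals were apart. The ratio was 0.324 (0.241 to 0.428). In this class 4.20% of 10767 genes differed by 2-fold or more and 1.62% were lower by that much in Bmx-CreER Wls. A ratio as low as that of Tnfrsf11b was found for 43 of the 10767 genes, and for 3 of the 2719 genes with as many UMIs. A Tnfrsf11b UMI was seen in 20.2% of WT cells and 8.52% of Bmx-CreER Wls cells, or 7.39% and 2.96% after thinning to 1000 UMIs (5 and 1 cells left out), at median depths of 3206 and 3234 UMIs. Csf1 in the same cells differed by less than counting error, as given above. Tnfrsf11b was also lower in Hbegf-led cells, with 22 UMIs in 243 WT cells (29.1 CPM, 18.2 to 44.0) and 12 in 270 Bmx-CreER Wls cells (13.4 CPM, 6.91 to 23.3). Those intervals overlapped. Tendon-like cells had 36.9 CPM in WT and 35.3 CPM in Bmx-CreER Wls.

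Clustering the fibroblast-like cells again showed the lower level in most, but not all, of the subclusters with enough UMIs. Of the 6 subclusters with at least 20 Tnfrsf11b UMIs, 5 were lower in Bmx-CreER Wls and 3 of these had intervals below 1. In the Efemp1-led subcluster, whose leading genes include Pi16, the gene had 83 UMIs in 106 WT cells (181 CPM) and 5 in 19 Bmx-CreER Wls cells (44.3 CPM). In the Cenpf-led subcluster, with Mki67 at 1065 and 1015 CPM, it had 48 UMIs in 120 cells (89.4 CPM) and 5 in 74 cells (15.2 CPM). In the Piezo2-led subcluster it had 88 UMIs in 254 cells (116 CPM) and 12 in 65 cells (59.2 CPM). The Apoe-led subcluster had the opposite order, with 6 UMIs in 70 cells (33.6 CPM) and 16 in 115 cells (53.7 CPM). Below 20 UMIs, the Col26a1-led subcluster had 23.1 CPM in both libraries (6 UMIs in 104 cells and 9 in 141 cells). A Col2a1-led subcluster had 12 UMIs in 17 cells (136 CPM) and 4 in 10 cells (63.3 CPM), and the Heyl-led and Tnmd-led ones had 1 and 0 UMIs each.

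The mix of fibroblast-like subclusters and the sex of the cells moved with the library. The Piezo2-led subcluster made up 25.9% of the class in WT and 10.7% in Bmx-CreER Wls, the Efemp1-led 10.8% and 3.11%, and the Col26a1-led 10.6% and 23.1%. With the Bmx-CreER Wls levels weighted to the WT mix, the level was 33.8 CPM and the ratio 0.385. Among cells with Y-linked UMIs and none of Xist, WT had 155 UMIs in 463 cells and Bmx-CreER Wls 7 in 50 cells (ratio 0.371, 0.147 to 0.782). Among cells with Xist UMIs and none of the 4 Y-linked genes, WT had 16 UMIs in 88 cells and Bmx-CreER Wls 39 in 328 cells (ratio 0.579, 0.316 to 1.11), an interval that includes 1.

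**Figure D4:**
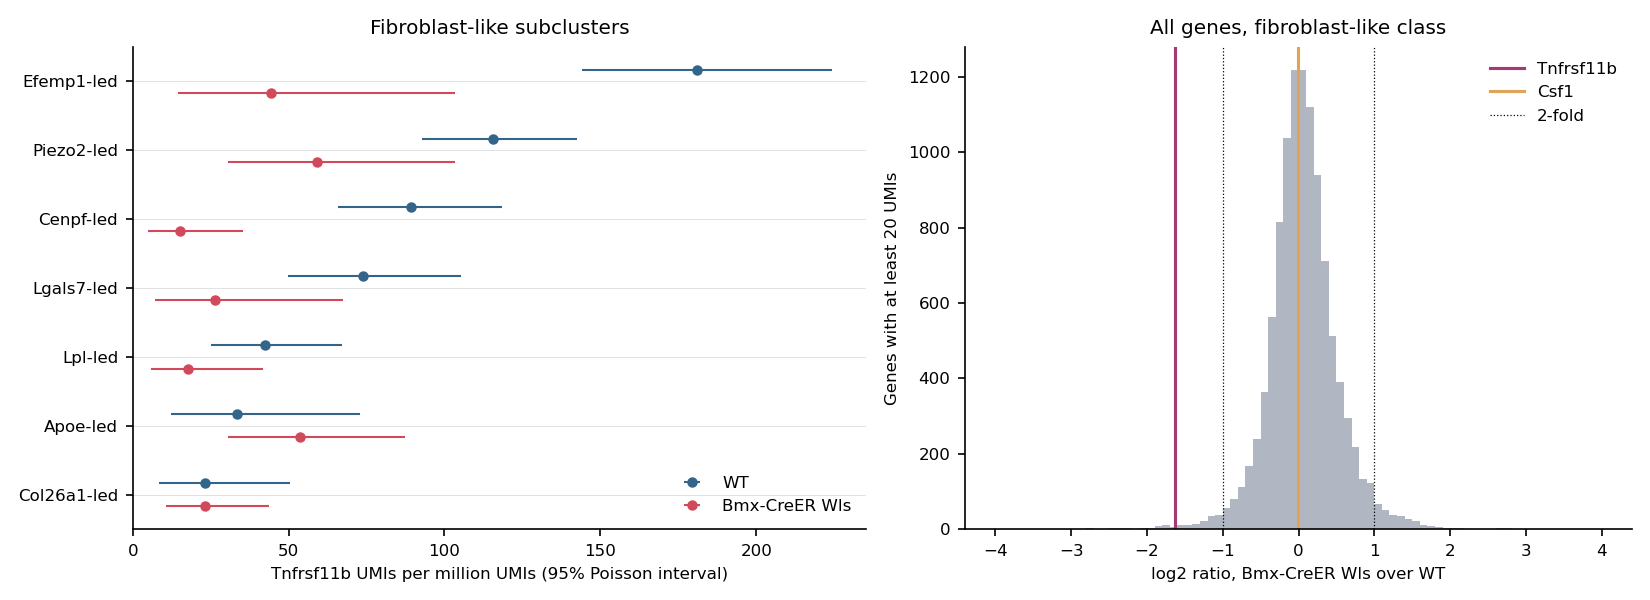
Tnfrsf11b level (CPM, exact 95% Poisson intervals) in the subclusters of Col3a1-high fibroblast-like cells by library, and a histogram over 10767 genes of the log2 level ratio of Bmx-CreER Wls to WT in the class, with dotted lines at 2-fold. Tnfrsf11b, at -1.63 on the log2 scale, lies in the low tail, with 43 genes at or below it.

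Il34, the second ligand of CSF1R, was rare, with 30 UMIs in the WT cells and 32 in the Bmx-CreER Wls cells. It was highest in mural-like cells, the contractile and pericyte cells of vessel walls, with 17 UMIs in 156 WT cells (34.6 CPM, interval 20.2 to 55.4) and 8 in 143 Bmx-CreER Wls cells (14.8 CPM, 6.39 to 29.1). This level was at least 2 times that of each other class with 50 cells or more in each library, as for 1.33% of 13791 genes. In Bmx-CreER Wls it rests on 8 UMIs. The cartilage classes together held 13 of the 32 UMIs there (40.6%, at 0.937 CPM). The fibroblast-like, Hbegf-led and tendon-like classes held 11 (34.4%, at 2.85 CPM). In mural-like cells the ratio between the libraries was 0.427 with an interval of 0.160 to 1.04, so that the lower count in Bmx-CreER Wls was not beyond counting error. No Il34 UMI was seen in osteoclast-like, Lyz2-led or Mpo-led cells. In superficial cartilage and joint lining-like cells there was 1 UMI in 405 WT cells and 8 in 875 Bmx-CreER Wls cells.

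Csf1r and Tnfrsf11a, the receptors, shared the osteoclast-like class. Csf1r had 1365 UMIs in 169 WT cells (1051 CPM, interval 996 to 1108) and 1219 in 108 Bmx-CreER Wls cells (1428 CPM, 1349 to 1510), and was seen in 95.9% and 97.2% of the cells. Tnfrsf11a had 305 UMIs (235 CPM, 209 to 263) and 214 UMIs (251 CPM, 218 to 287), and was seen in 71.6% and 73.1% of the cells. After thinning to 1000 UMIs (4 and 1 cells left out) the shares were 59.4% and 70.1% for Csf1r and 20% and 15.9% for Tnfrsf11a. The Col3a1-high fibroblast-like cells, which should lack both, had a Csf1r UMI in 0.204% and 0.328% of cells and no Tnfrsf11a UMI. Both receptors were at 2 times or more the level of each other class with 50 cells or more in each library, as were 2.70% of 13791 genes. The Lyz2-led class, below that size in WT, is not among them. Both receptors were within 2-fold of its level in WT, and Csf1r was so in Bmx-CreER Wls as well. Of osteoclast-like cells with a Tnfrsf11a UMI, 97.5% in WT and 100% in Bmx-CreER Wls also had a Csf1r UMI.

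The Lyz2-led class, small at 39 and 50 cells, was the other myeloid class. It had 80 Csf1r UMIs in WT (674 CPM) and 171 in Bmx-CreER Wls (1096 CPM), and 18 and 12 Tnfrsf11a UMIs (152 and 76.9 CPM). Together with the osteoclast-like class it held 97.2% and 97.6% of the Csf1r UMIs and 96.7% and 91.9% of the Tnfrsf11a UMIs. Mpo-led blood progenitors had 27 and 23 Csf1r UMIs in 509 and 311 cells, of which 20 and 20 lay in a Flt3-led subcluster of 107 and 61 cells. In the study's labels for WT, 129 of the 139 cells labelled as neutrophil progenitors fell into the osteoclast-like class, and these 139 had Csf1r at 1172 CPM and Tnfrsf11a at 243 CPM. The 173 cells labelled as multipotent blood progenitors, 114 of them Mpo-led here, had 165 Csf1r UMIs (143 CPM) and 56 Tnfrsf11a UMIs (48.6 CPM). All 509 Mpo-led cells of WT together had 27 Csf1r and 6 Tnfrsf11a UMIs, so most of these UMIs lay in labelled cells outside that class. Cells labelled as myeloid progenitors (144, 132 of them Mpo-led) had 42 and 12 UMIs, also more than the whole Mpo-led class. Those labelled as megakaryocyte progenitors (89) had 1 and 1.

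The osteoclast-like and Lyz2-led cells were clustered again. The osteoclast-like subcluster led by Mt3 and Oscar, with the protease gene Ctsk at 31843 CPM in WT and 26749 CPM in Bmx-CreER Wls, had Csf1r at 1550 and 1985 CPM and Tnfrsf11a at 282 and 300.0 CPM. The Sema3d-led subcluster, with Ctsk at 10607 and 9958 CPM, had Csf1r at 931 and 1467 CPM and Tnfrsf11a at 217 and 245 CPM. The subcluster led by Col10a1 and Cenpf, with Ctsk at 3811 and 2877 CPM and Mki67 at 476 and 391 CPM, had Csf1r at 584 and 821 CPM and Tnfrsf11a at 210 and 202 CPM. The order of these 3 subclusters was the same for Ctsk, Csf1r and Tnfrsf11a in both libraries, although neighbouring Tnfrsf11a levels had overlapping intervals. Macrophage-like cells (13 and 14) had Csf1r at 1151 and 1944 CPM, and Tnfrsf11a at 270 and 140 CPM (15 and 7 UMIs), with Ctsk at 36.0 and 1162 CPM, so that outside these 3 subclusters Tnfrsf11a did not follow Ctsk. Neutrophil-like cells (13 and 31) had 15 and 68 Csf1r UMIs, and dendritic-like cells (11 and 3) had 1 UMI in each library.

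**Figure D5:**
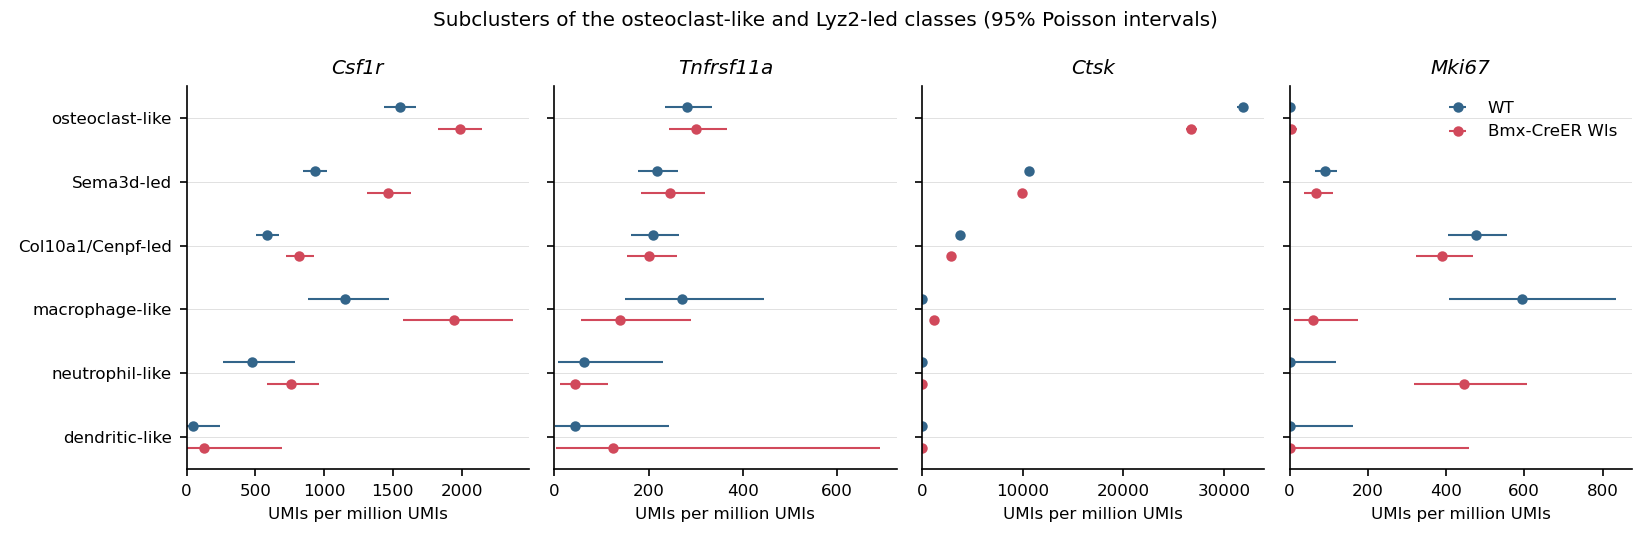
Levels (CPM) of Csf1r, Tnfrsf11a, Ctsk and Mki67 in subclusters of the osteoclast-like and Lyz2-led cells, by library, with exact 95% Poisson intervals (a chondrocyte-like subcluster of 6 and 3 cells is not drawn). Csf1r is higher in Bmx-CreER Wls in the osteoclast-like subcluster (1550 against 1985 CPM) and the Sema3d-led one (931 against 1467 CPM), while Tnfrsf11a is close (282 against 300.0 CPM and 217 against 245 CPM).

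Csf1r in osteoclast-like cells was 1.36 times as high in Bmx-CreER Wls as in WT (interval 1.26 to 1.47). The ratio was above 1 with its interval in each of the 3 main subclusters, at 1.28 (1.15 to 1.43) for the Mt3-led, 1.58 (1.36 to 1.82) for the Sema3d-led and 1.41 (1.16 to 1.70) for the Col10a1-led subcluster. Among the genes of the class with at least 20 UMIs, 86.2% had a lower ratio, and 4.72% of 7943 genes differed by 2-fold or more. That ranking includes genes with far fewer UMIs than Csf1r, whose ratios vary more by counting error. Csf1r was not ranked among genes with as many UMIs. Tnfrsf11a had a ratio of 1.07 (0.892 to 1.28). The share of cells of the Y kind in this class was 81.2% in WT and 25.4% in Bmx-CreER Wls, and the Csf1r ratio was 1.15 among cells of the Y kind and 1.79 among those of the Xist kind.

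The machinery downstream of the receptors was present in the osteoclast-like cells. Of 65 pathway genes listed, 63 were in the tables. They were compared by the rule used above, a level in osteoclast-like cells at least 2 times that of each other class with 50 cells or more in each library, which 2.70% of 13791 genes met and which leaves out the Lyz2-led class. Of the 17 genes of RANK signal transduction, Nfkb2, Src and Cyld met it. Src, the kinase needed for the ruffled border, stood at 359 and 360 CPM against 87.6 and 86.9 CPM in the next of these classes. Traf6, the adaptor of RANK, stood at 49.3 and 48.0 CPM against 31.6 and 33.5 CPM in the next of these classes, and at 25.3 and 51.3 CPM in Lyz2-led cells. Of the 9 listed genes of ITAM co-stimulation in the tables, Tyrobp, Fcer1g, Trem2, Oscar and Pirb met the same rule, with the adaptor Tyrobp at 2018 and 1515 CPM and the receptor Oscar at 310 and 268 CPM. Of 9 osteoclast transcription factors, Nfatc1, Jdp2, Mitf, Tfec, Spi1 and Prdm1 did, with Nfatc1, the master regulator, at 2092 and 2171 CPM. Several of these genes were not particular to osteoclast-like cells among the myeloid cells. Lyz2-led cells had higher levels of Fcer1g (1617 and 2025 CPM, against 759 and 711 CPM), Trem2 (109 and 147, against 21.6 and 26.9 CPM), Pirb (168 and 154, against 23.1 and 16.4 CPM) and Cyld (118 and 83.3, against 87.8 and 80.8 CPM). In Bmx-CreER Wls they were also higher in Tyrobp (1756 CPM) and Nfkb2 (64.1 against 56.2 CPM), and Spi1 stood at 370 and 404 CPM there against 447 and 649 CPM in osteoclast-like cells.

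Repressors of osteoclast formation differed in level there. Irf8 had 3.85 CPM in WT and 3.51 CPM in Bmx-CreER Wls in osteoclast-like cells, against 733 CPM in the Lyz2-led cells of WT. Bcl6 and Id1 were at 3.51 CPM or less in both libraries, while Id2 stood at 185 and 122 CPM. None of the 6 genes of CSF1R signal transduction met the 2-fold rule. Of the other ligands and receptors, Csf2ra, a subunit of the GM-CSF receptor, met it with 190 and 150 CPM, but stood at 295 and 372 CPM in Lyz2-led cells. Between the libraries, 1 of the 16 RANK signal genes with at least 20 UMIs in osteoclast-like cells was at 2-fold or more (Traf2), and none of the 9 ITAM, 8 transcription factor or 6 CSF1R signal genes. The median ratios of these lists were 1.002, 0.865, 0.973 and 1.06, against 1.004 over all genes of the class.

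On the sending side, receptors that bear on Tnfsf11 in stromal cells were found in several classes. Vdr, the vitamin D receptor, was highest in osteoblast-like cells (480 CPM in WT and 452 CPM in Bmx-CreER Wls), where Lifr stood at 212 and 144 CPM against 60.8 and 39.2 CPM in the next class. Pth1r, the parathyroid hormone receptor, was highest in hypertrophic chondrocyte-like cells (1325 and 1157 CPM). None of the 6 such genes with at least 20 UMIs in osteoblast-like cells differed by 2-fold between the libraries, and their median ratio was 1.09.

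By the correlation of log levels over the 14 classes with 50 cells or more in each library, which share the libraries and their depth, the genes most like each member were as follows. Syt6, Slc36a2 and Wisp2 were closest to Tnfsf11, with the lower of the r of the libraries at 0.944, 0.943 and 0.937. Msr1, Ms4a6d and Slc37a2 were closest to Tnfrsf11a (r from 0.990 to 0.994), and Ccr1, Pik3r5 and Lrrc25 to Csf1r (0.995 to 0.997). Erlec1, Ddost and Dcaf12l2 were closest to Tnfrsf11b (0.910, 0.897 and 0.891), and Actg2, Itgb8 and Nrip2 to Il34 (0.928, 0.917 and 0.908). Csf1, the most widely found member, had the weakest matches, with Bmp1, Zcchc24 and Sall2 at 0.854, 0.844 and 0.827.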

How the data were processed

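The authors deposited, for each library, a table of raw counts (UMIs by gene and by cell barcode, not normalized); per the labels the reads were processed with bcl2fastq 2.19.1.403, UMI-tools 1.0.1, STAR 2.7.1a and featureCounts of Subread 1.6.4 on mm10. Whole-transcriptome tags lie near transcript ends, so levels are not divided by transcript length. UMIs limit but do not remove counting error, and RNA free in the suspension gives UMIs in cells that do not express a gene.

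The filter of the study's methods was applied (over 200 and under 5000 genes, under 30% mitochondrial UMIs), which removed 262 and 205 barcodes. Both libraries were clustered together in scanpy 1.11.5 (scale factor 10000, variable genes with mean 0.0125 to 3 and dispersion of at least 0.5, without cell cycle genes, the 6 genes and the pathway genes; 11 principal components, 20 neighbours, Leiden resolution 0.5). Of 16 clusters, 11 were named from marker lists; these names were rebuilt and are not the authors'. Doublets were kept, and as an alternative the top 5% of Scrublet scores per library was left out. Levels are pooled UMIs per 1000000 with exact Poisson intervals; ratios have exact conditional binomial and shares Clopper-Pearson intervals at 95%. A count of 0 allows 3 counts. Genes counted at 2-fold had at least 20 UMIs over both libraries. Likeness is Pearson's r of log2(CPM + 10). Named genes are the 6 members, the pathway genes at least 2 times as high in a class as in every other or highest in their list, and the 3 genes most like each member. The interval and count functions were tested on simulated data. The members and lists were chosen with earlier results of these data known. Subclustering of the bone, myeloid, fibroblast, blood and endothelial classes, the split by sex-linked genes, the WT mix and the removal of the top Tnfsf11 cell were added after seeing the data. The study's cell labels were used for the WT cells that the copy of its label table lists. Python 3.11.15, numpy 2.4.6, scipy 1.17.1, pandas 2.3.3, R 4.3.3 and edgeR 4.0.16 (TMM factors as an alternative normalization only) were used. Sequences of Tnfrsf11b, Il34 and Csf1r are not analysed here. One gene of the pathway lists is not reported here.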

Additional observations from a re-analysis of the deposited data

How the results depend on the processing

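No paired analysis was possible because each group has 1 library, and no library could be left out for the same reason. Of 239 levels, ratios and shares recomputed under the alternatives, 197 stayed within the counting interval of the reported value, and 79 of 86 library ratios stayed on their side of 1; the cause of the moves was not tested. Tnfsf11 in osteoblast-like cells was 37.0 CPM in WT as a mean over cells and 52.6 CPM in Bmx-CreER Wls after thinning, and its ratio 0.53 among cells of the Xist kind and 2.78 among those of the Y kind. Tnfrsf11a in osteoclast-like cells of Bmx-CreER Wls was 215 CPM with each library clustered alone and 196 CPM after thinning. Tnfrsf11b in Stc1-led cells, which some clusterings matched only by overlap, was 283, 99.0 and 98.5 CPM in WT with 30 components, with the members kept in the clustering and with own clustering, and 188, 128 and 124 CPM in Bmx-CreER Wls with 30 components, members kept and thinning; its ratio was 0.66, 1.29, 1.55 and 0.66 with 30 components, members kept, own clustering and Y cells. Csf1 in osteoblast-like cells was 468 and 442 CPM in WT and 455 and 322 CPM in Bmx-CreER Wls as a mean over cells and after thinning, with ratios of 0.73 after thinning, 0.72 among Xist cells and 2.24 among Y cells. Csf1r in osteoclast-like cells of WT was 889 CPM under the stricter cell filter, 1157 without haemoglobin and mitochondrial genes in the total, 987 as a mean over cells, 970 after thinning and 1172 under the study's labels; in Bmx-CreER Wls it was 1304 under the stricter filter, 1328 with own clustering, 1555 with the other total and 1570 after thinning; its ratio was 1.48 as a mean over cells, 1.62 after thinning, 1.79 among Xist and 1.15 among Y cells. The Il34 ratio in mural-like cells was 0.0 among Y cells, and the Tnfrsf11b ratio in fibroblast-like cells 0.58 among Xist cells. The ratio of Tnfsf11 to Tnfrsf11b in osteoblast-like cells of Bmx-CreER Wls was 3.0 after thinning. Without the highest doublet scores the osteoclast-like class held 96.0% of Tnfrsf11a and 96.3% of Csf1r UMIs in WT and the osteoblast-like class 18.04% of Csf1 UMIs in Bmx-CreER Wls. Without the filter on low counts the genes past 2-fold were 4376, 4233, 4486 and 4539 in osteoblast-like, osteoclast-like, fibroblast-like and chondrocyte-like cells, against 402, 375, 452 and 412. Depth limits Tnfsf11 and Il34 most, with 30 to 59 UMIs per library.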

Other observations

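Blood cells also carried Csf1. Of the Mpo-led cells, the basophil and mast-like subcluster, led by Prss34 and Mcpt8, had 38 Csf1 UMIs in 47 WT cells (100.8 CPM) and 25 in 23 Bmx-CreER Wls cells (113 CPM). A small Ccl3-led subcluster, with the histidine decarboxylase gene Hdc at 4116 and 4349 CPM and Csf1 among its own leading genes, had 39 UMIs in 11 WT cells (2140.5 CPM) and 16 in 9 Bmx-CreER Wls cells (1160 CPM). These levels were above that of any class, including osteoblast-like cells, but rest on few cells. The stem and multipotent-like and the erythroid-like subclusters had no Csf1 UMI in either library, the Flt3-led one had 3 in WT and 2 in Bmx-CreER Wls, and the Car1-led one 0 and 1.

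Tnfrsf11a UMIs outside the myeloid classes were few. A Lyve1-led subcluster of endothelial-like cells, with Ccl21a and Prox1 among its leading genes, had 1 in 5 WT cells and 6 in 8 Bmx-CreER Wls cells, while the sinusoidal endothelial-like and arterial endothelial-like subclusters had none in either library. A Rora-led subcluster of Mpo-led cells, with Il7r, had 3 in 8 WT cells and 1 in 4 Bmx-CreER Wls cells, and 2 Tnfsf11 UMIs in the latter. Ucma-led cells had 0 Tnfrsf11a UMIs in 726 WT cells and 8 in 1641 Bmx-CreER Wls cells.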
